A study of Mus musculus with 14 samples.

Results

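Mouse embryonic stem cell (ESC) lines that lack Zfp281 were followed through the later step of chemical conversion to extraembryonic endoderm (XEN) cells, from passage 1 to passage 3. The lines are 2.6Null and 3.34Null, and the 4 libraries are 2.6Null-cXENp1, 3.34Null-cXENp1, 2.6Null-cXENp3 and 3.34Null-cXENp3, chosen by these names out of 14 libraries in the series. Both lines carry the genotype Zfp281KO on the 129S1/SVImJ background; the cell line field of 2.6Null reads 2.26, and the title is used here. ESCs were moved to XEN medium, given all-trans retinoic acid at 0.01 µM with activin A at 10 ng/mL for 48 hours (passage 1), grown on iMEF feeder fibroblasts (passage 2) and returned to gelatin (passage 3). The libraries used beside them are the ESCs of the same lines, the wild-type line 3WT and 3.34Null-Rescue (Zfp281KO with Zfp281 restored) at each stage, all 129S1/SVImJ, and the wild-type XEN lines XENB1 (129S1) and XEN5 (129S1/SVImJ), which are grown without feeders in medium conditioned by MEFs. Each line gave 1 library at each stage, and how each line was derived is not given in the sources used here. The p-values below therefore measure only the spread between these libraries.

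XEN cells are the cultured form of the primitive endoderm, the blastocyst layer that gives rise to the parietal and visceral endoderm of the yolk sac. GATA6 and GATA4 head its transcription factor network, with SOX17, SOX7 and FOXA2, and parietal endoderm secretes Reichert's membrane, a thick basement membrane of laminins, type IV collagen, nidogens and perlecan. Retinoic acid and activin start endoderm differentiation in ESCs, and the retinoid is withdrawn before the cells are passaged. Zfp281 is a zinc finger transcription factor of ESCs, and the series title asks whether it stands in the way of this conversion.

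Expression was measured by polyA RNA-seq and deposited as FPKM (fragments per kilobase of transcript, relative to the fragments mapped in the library), with no read counts, so the depth is unknown. Paired values below are given for 2.6Null first and 3.34Null second. In all 14 libraries, 14972 to 16831 genes were above 0 and the 10 genes with the highest values made up 6.13% to 12.2% of all FPKM in a library. Zfp281 (XLOC_000413, mm9 chr1:138521478-138526968) was listed at 0 in 2.6Null and had 1.29 FPKM in 3.34Null at passage 1, and 0.559 and 3.96 FPKM at passage 3. 3WT and 3.34Null-Rescue had 25.1 and 27.2 FPKM at passage 1 and 34 and 38.6 FPKM at passage 3, so the 4 Null libraries lay below them at both stages. The library descriptions of all passage 1, passage 3 and XEN libraries carry the same prefix, XH; of the ESC libraries, which enter the fit too, that of 2.6Null carries XH and those of 3.34Null, 3WT and 3.34Null-Rescue carry JH, and what the prefixes stand for is not given in the sources used here. Some genes are listed at exactly 0 in both libraries of a stage: Eef1a1, a translation factor that every cell uses, is listed at 0 in both Null lines at passage 1 and had 4029.8 and 5177 FPKM at passage 3. A listed 0 is therefore reported as such and given no fold change.

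Between passage 1 and passage 3, 11 of 12 parietal endoderm and XEN surface markers, 20 of 21 secretory chaperones, 19 of 25 lysosomal genes and 5 of 12 primitive endoderm transcription factors rose in the Null lines. All 12 genes of the 2-cell-like list fell, with 24 of 33 Hox genes, 13 of 23 retinoic acid genes and 6 of 15 genes of simple epithelium. The median change of each of these lists was negative in 3WT and 3.34Null-Rescue as well. Of 13191 genes tested, 2972 (22.5%) passed a limma adjusted p of 0.05, 1708 higher (12.9%) and 1264 lower (9.58%) at passage 3. Quantile normalization moved this split to 1673 higher and 1776 lower. All 2972 changed in the same direction in both lines, which follows largely from calling genes on the mean change of these 2 lines. Of all 13191 genes tested, 9861 changed in the same direction in both. The median change of the genes that rose was 1.38 in 2.6Null and 1.44 in 3.34Null on the log2(FPKM + 1) scale, a scale that understates changes of low genes and is used for every log2 change here. The median change over all genes tested was -0.01. Leaving out 1 line brought the count to 1268 without 3.34Null, 1642 without 2.6Null, 1958 without 3.34Null-Rescue and 1968 without 3WT.

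**Figure D1:**
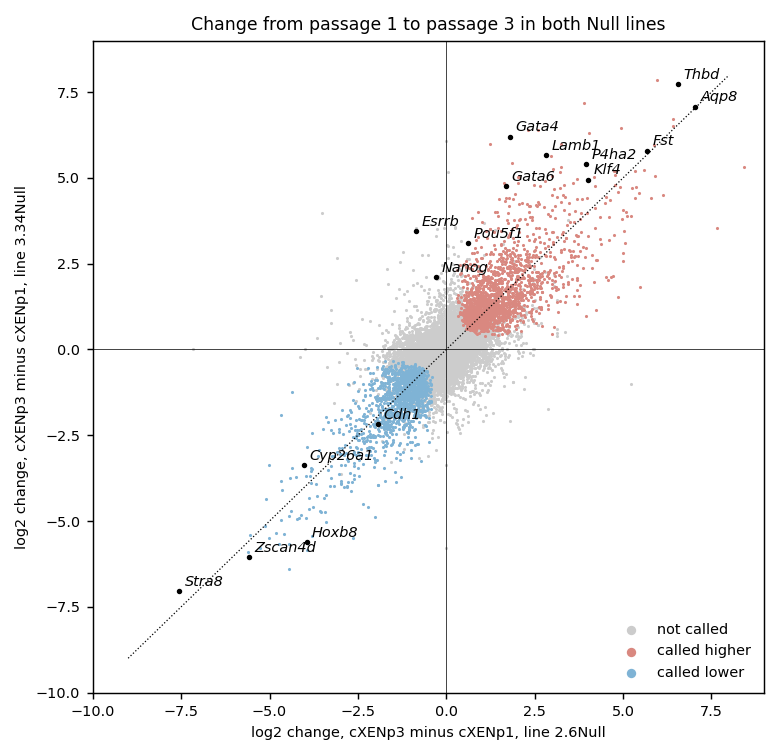
Change from passage 1 to passage 3 in 2.6Null (horizontal axis) and 3.34Null (vertical axis), each point 1 tested gene on the log2(FPKM + 1) scale, with called genes in colour and 13 genes listed at 0 in both libraries of a stage left out. Stra8 lies at the lower left end and Thbd and Aqp8 at the upper right, while Gata4 and Gata6 lie above the dotted line of equal change.

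The primitive endoderm factors Gata6, Gata4, Sox17, Sox7 and Foxa2 rose, and the lines started from unequal levels. Gata6 (XLOC_009288, chromosome 18) had 43.3 and 6.88 FPKM at passage 1 and 141 and 212 FPKM at passage 3, a log2 change of 3.22 (SE 0.84, adjusted p = 0.0297). The passage 3 libraries exceeded both passage 1 libraries and stood beside XENB1 and XEN5, with 158 and 196 FPKM. Gata4, its partner in the lineage, had 91.2 and 4.57 FPKM at passage 1 and 323 and 410.2 FPKM at passage 3 (log2 change 4.01, SE 0.81, adjusted p = 0.0114). Sox17, an endoderm factor that acts downstream of GATA6, had 32.2 and 7.67 FPKM and then 106 and 183 FPKM (log2 change 3.05, SE 0.58, adjusted p = 0.00854). In each of these 3 genes 2.6Null was the higher line at passage 1 and the lower line at passage 3. Sox7, a relative of Sox17, went from 26.0 and 0.849 FPKM to 63.0 and 118 FPKM (log2 change 3.62, SE 0.90, adjusted p = 0.0243). Foxa2, a pioneer factor of endoderm, went from 18.9 and 7.42 FPKM to 77.7 and 62.4 FPKM (log2 change 2.45, SE 0.55, adjusted p = 0.0163). Foxa1, its close relative, moved the other way, from 12.2 and 17.2 FPKM to 0.359 and 0.158 FPKM (log2 change -3.62, SE 0.27, adjusted p = 0.000222), and the XEN lines were as low, with 0.0988 and 0.0200 FPKM.

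Of the 12 factors in the list 5 rose, 1 fell and 6 did not pass, with a median log2 change of 1.32. The median was 0.46 in 2.6Null and 2.62 in 3.34Null. At passage 1, 11 of the 12 were higher in 2.6Null, by a median of 1.97 log2 units, and at passage 3 it was 5 of 12, by a median of -0.27. Hnf4a, the nuclear receptor of visceral endoderm, stayed low, with 2.55 and 0.140 FPKM and then 3.37 and 3.99 FPKM (adjusted p = 0.0621). Cited1, a transcriptional coactivator, had 49.0 and 4.25 FPKM and then 19.3 and 30.0 FPKM (adjusted p = 0.56). Without 3.34Null 2 factors rose and 2 fell, and Gata6, with a log2 change of 1.68 in 2.6Null alone (adjusted p = 0.23), was not called. The calls of Sox7 (without 3.34Null, 3WT or 3.34Null-Rescue) and Foxa2 (without either Null line) were lost in the same way. The Gata6 call was lost in 4 of 13 alternative runs, that without 3.34Null among them. With a pseudocount of 0.1, no filter or 8 libraries, 3 of the factors were called higher. In promoter windows from RefSeq (GRCm38.p6, 250 bases before to 50 after each annotated start) a GATA site (GATA after A or T and before A or G, on either strand) occurred in 29.8% of 32851 windows. Of 2078 tested genes with such a window, 289 rose (13.9%) and 160 fell (7.70%), shares near the 12.9% and 9.58% of all genes tested, with a median log2 change of 0.02.

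**Figure D2:**
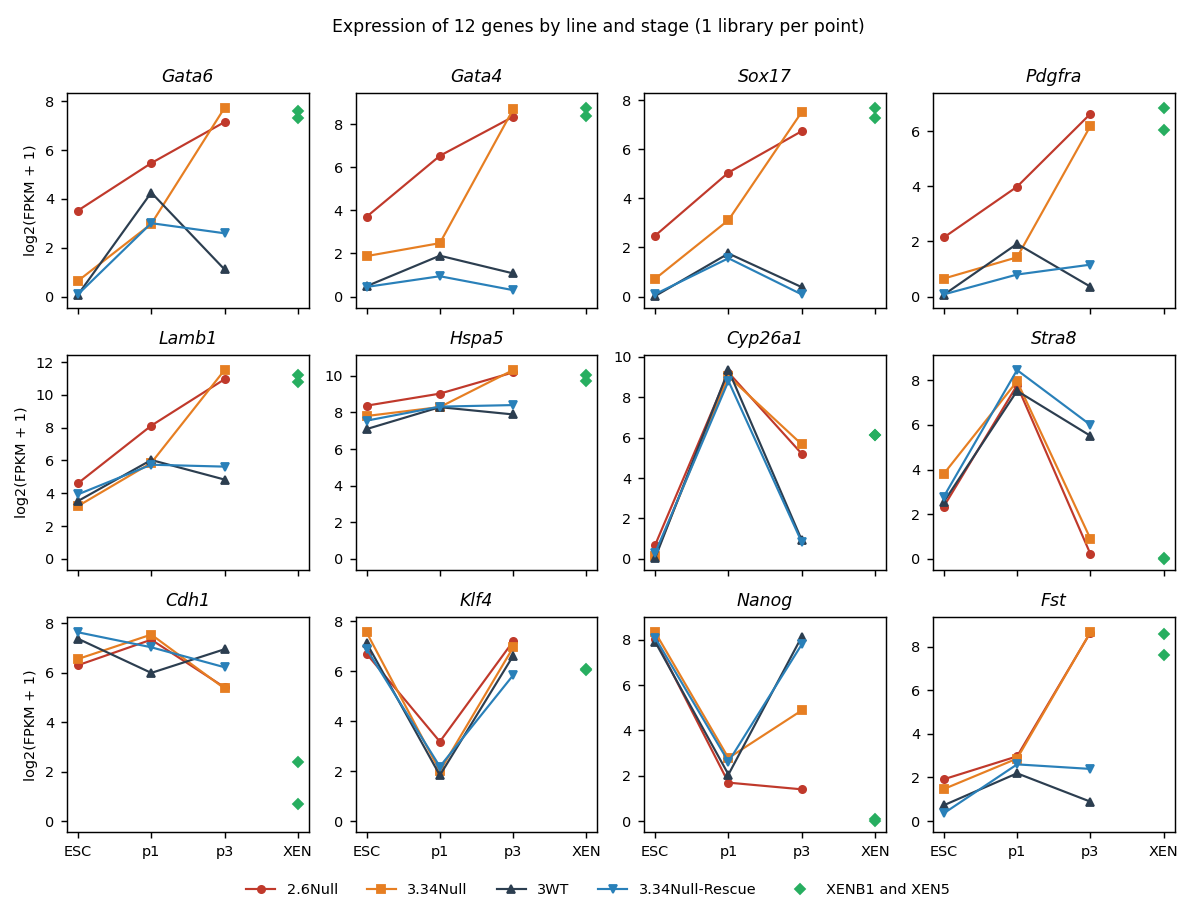
Level of 12 genes, in log2(FPKM + 1), at ESC, passage 1 and passage 3 in 4 lines, with the XEN lines at the right; each point is 1 library. The Null lines reach the XEN level of Gata6, Gata4, Sox17, Pdgfra, Lamb1 and Fst by passage 3, Cyp26a1 and Stra8 peak at passage 1, and Nanog returns in 3WT, 3.34Null-Rescue and, less far, in 3.34Null.

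Surface and secreted markers of parietal endoderm and XEN cells rose as a group: 11 of 12 were called higher, none lower, with a median log2 change of 3.60. Thbd, thrombomodulin, had 0.853 and 0.189 FPKM at passage 1 and 173 and 253 FPKM at passage 3, the largest rise by the naming rule (log2 change 7.14, SE 0.47, adjusted p = 0.000164). XENB1 and XEN5 had 49.3 and 218 FPKM. Fxyd3, a regulator of the sodium pump, had 4.90 FPKM in 2.6Null and was listed at 0 in 3.34Null at passage 1, and had 365 and 233 FPKM at passage 3. Pdgfra, the receptor by which primitive endoderm is sorted, went from 14.8 and 1.68 FPKM to 97.7 and 71.7 FPKM (log2 change 3.70, SE 0.55, adjusted p = 0.00321). Pth1r, the receptor for parathyroid hormone-related peptide that acts in parietal endoderm, went from 75.2 and 8.38 FPKM to 278 and 402 FPKM (log2 change 3.65, SE 0.71, adjusted p = 0.00975). Both receptors were higher in 2.6Null at passage 1, and at passage 3 every Null library exceeded both passage 1 libraries. Srgn, the proteoglycan serglycin, went from 186 and 8.65 FPKM to 918 and 817 FPKM (log2 change 4.35, SE 0.77, adjusted p = 0.00664), and Tfpi, an inhibitor of coagulation, from 78.4 and 8.33 FPKM to 407 and 168 FPKM (log2 change 3.27, SE 0.38, adjusted p = 0.00124). Lyz2, a lysozyme best known from macrophages, was listed at 0 in 2.6Null and had 0.0567 FPKM in 3.34Null at passage 1, and 57.5 and 64.6 FPKM at passage 3. Cryab (3.55), Snai1 (3.00), Vim (2.45) and Stra6 (1.21) also rose, as log2 changes. Plat, tissue plasminogen activator, had 46.5 and 16.2 FPKM and then 142 and 143 FPKM, and did not pass (adjusted p = 0.0788). The count was 5 of 12 without 3.34Null, when Pdgfra, Pth1r, Snai1, Cryab, Vim and Stra6 were not called, and 10 without 2.6Null, when Vim was not.

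The genes of the basement membrane moved in both directions. Lamb1 (XLOC_004134, mm9 chr12:31950159-32014504), the laminin beta chain of Reichert's membrane, had 278 and 56.8 FPKM at passage 1 and 1987 and 2933 FPKM at passage 3, a log2 change of 4.25 (SE 0.57, adjusted p = 0.00219). All passage 3 values exceeded the passage 1 values, and the XEN lines had 1768 and 2386 FPKM. Nid1, which links laminin to type IV collagen, had 18.1 and 6.93 FPKM and then 182 and 316 FPKM (log2 change 4.29, SE 0.50, adjusted p = 0.00126). Its paralog Nid2 had 174 and 32.5 FPKM and then 579 and 462 FPKM (log2 change 2.76, SE 0.51, adjusted p = 0.00789). Hspg2, perlecan, went from 82.0 and 35.2 FPKM to 252 and 264 FPKM (log2 change 2.24, SE 0.46, adjusted p = 0.0121). Fn1 (1.92) and Lamb2 (1.54) rose as well, as log2 changes. Col18a1, the collagen that yields endostatin, fell from 111 and 163 FPKM to 13.3 and 19 FPKM (log2 change -3.00, SE 0.36, adjusted p = 0.00148). Agrn, agrin, fell from 37.1 and 23.5 FPKM to 11.6 and 12.5 FPKM (log2 change -1.23, SE 0.23, adjusted p = 0.00854), and Lama5, a laminin alpha chain, from 30.9 and 29.1 FPKM to 8.65 and 11.2 FPKM (log2 change -1.51, SE 0.39, adjusted p = 0.0266).

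Another 5 members are listed at 0 in both Null lines at passage 3 and in both XEN lines, and their levels there are unknown. At passage 1 Col4a1 had 772 and 51.3 FPKM, Col4a2 399 and 26.9 FPKM, Sparc 852 and 141 FPKM, Lamc1 317 and 116 FPKM, and Lama1 234 and 21.2 FPKM. 3WT had 15.0 FPKM of Col4a1 and 109 FPKM of Lamc1 at passage 3, so the row itself is not empty at that stage. Among the other 11 members tested, 6 rose and 3 fell, with a median log2 change of 1.54; with the listed zeros the same list counts 8 lower of 16 and a median of -0.99. The calls of Nid2 and Hspg2 were lost without 3.34Null, those of Fn1 and Agrn without 2.6Null, and those of Lamb2 and Lama5 without either Null line.

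The machinery that folds and modifies secreted proteins rose almost as a whole: 20 of 21 members were called higher, none lower, with a median log2 change of 1.65. Enzymes and chaperones of collagen led. P4ha2, a subunit of collagen prolyl 4-hydroxylase, had 42.8 and 18.0 FPKM at passage 1 and 684 and 804 FPKM at passage 3 (log2 change 4.69, SE 0.35, adjusted p = 0.000222). P4ha1, the alternative subunit, went from 52.2 and 8.78 FPKM to 434 and 374 FPKM (log2 change 4.15, SE 0.74, adjusted p = 0.00661), and Plod2, a lysyl hydroxylase, from 62.0 and 13.3 FPKM to 496 and 478 FPKM (log2 change 4.03, SE 0.55, adjusted p = 0.00238). For these enzymes the 2 lines stood further apart at passage 1 than at passage 3. Serpinh1, the collagen chaperone HSP47, reached 2815 and 4092 FPKM from 504 and 146 FPKM (log2 change 3.64, SE 0.70, adjusted p = 0.00895). P4hb, the protein disulfide isomerase shared by the hydroxylases, went from 513 and 254 FPKM to 1939 and 1742 FPKM (log2 change 2.34, SE 0.24, adjusted p = 0.000802). General chaperones of the endoplasmic reticulum rose by less. Hspa5 (BiP) went from 521 and 313 FPKM to 1165 and 1273 FPKM (log2 change 1.59, SE 0.26, adjusted p = 0.00492). Calr, calreticulin, went from 1030.1 and 421 FPKM to 1772 and 2979.9 FPKM (log2 change 1.80, SE 0.42, adjusted p = 0.0193). Hsp90b1 (GRP94) rose by 1.38 (SE 0.33, adjusted p = 0.0204) and Creld2 by 1.58 (SE 0.36, adjusted p = 0.0183) on the log2 scale. At passage 1 all 21 members were higher in 2.6Null, and at passage 3 it was 3 of 21. Without 3.34Null the count was 6 of 21, and Serpinh1, Hspa5, Calr, Creld2 and Hsp90b1 were among those lost; Hsp90b1 was also lost without 3WT or 3.34Null-Rescue.

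The promoters of the list were searched for the endoplasmic reticulum stress element, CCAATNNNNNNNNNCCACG on either strand. Windows are those of RefSeq (GRCm38.p6), so their coordinates are in another build than the mm9 coordinates of the expression table. The element occurred in 39 of 32851 windows (0.119%), or by gene in 37 of 27025 genes (0.137%). It occurred in 7 of the 18 chaperone genes that have a window: Calr, Canx, Creld2, Dnajc3, Hsp90b1, Hspa5 and Pdia6. Pdia6 is also the member that did not pass, with 324 and 193 FPKM and then 355 and 804 FPKM (log2 change 1.09, SE 0.39, adjusted p = 0.0796). Whether it overlaps the other motifs searched was not tested. The windows of 4 of these genes are shown 5′ to 3′ along the gene's own strand, with the element in capitals; where it reads CGTGG first, the match is on the opposite strand. It begins 65 bases before the start in Hspa5, 212 and 107 bases before it in Hsp90b1, 162 in Calr and 126 in Creld2.
Hspa5, chr2:34771840-34772139, plus strand: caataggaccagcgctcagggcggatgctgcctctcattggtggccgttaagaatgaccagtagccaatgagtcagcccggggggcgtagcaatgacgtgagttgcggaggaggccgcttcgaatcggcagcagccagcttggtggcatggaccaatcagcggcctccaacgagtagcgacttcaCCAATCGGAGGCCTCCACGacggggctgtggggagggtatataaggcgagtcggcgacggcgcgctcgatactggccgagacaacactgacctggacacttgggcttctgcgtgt
Hsp90b1, chr10:86705395-86705694, minus strand: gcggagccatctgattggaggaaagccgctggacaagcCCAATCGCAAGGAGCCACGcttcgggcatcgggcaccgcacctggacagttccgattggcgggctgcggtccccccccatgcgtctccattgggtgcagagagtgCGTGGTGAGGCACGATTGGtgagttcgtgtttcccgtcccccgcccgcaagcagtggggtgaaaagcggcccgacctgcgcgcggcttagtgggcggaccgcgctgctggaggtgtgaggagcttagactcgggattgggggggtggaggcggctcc
Calr, chr8:84846882-84847181, minus strand: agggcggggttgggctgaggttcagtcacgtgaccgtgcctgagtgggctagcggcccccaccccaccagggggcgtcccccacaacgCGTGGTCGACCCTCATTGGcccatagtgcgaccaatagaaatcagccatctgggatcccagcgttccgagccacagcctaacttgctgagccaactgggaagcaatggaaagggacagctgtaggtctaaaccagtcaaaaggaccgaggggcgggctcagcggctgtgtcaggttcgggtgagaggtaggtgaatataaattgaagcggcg
Creld2, chr15:88819396-88819695, plus strand: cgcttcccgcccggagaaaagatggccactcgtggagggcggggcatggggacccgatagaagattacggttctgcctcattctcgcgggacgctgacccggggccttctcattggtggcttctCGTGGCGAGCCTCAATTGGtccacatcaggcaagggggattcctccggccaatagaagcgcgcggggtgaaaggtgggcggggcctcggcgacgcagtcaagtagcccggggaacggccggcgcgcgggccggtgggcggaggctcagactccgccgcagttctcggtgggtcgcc
Over all genes with the element in a window, 18 were tested, with a median log2 change of 0.78. Of these 8 rose (44.4%) and 1 fell (5.56%), beside 12.9% and 9.58% of all genes tested. The rises include all the chaperone genes listed above with the element but Pdia6, so the count is not separate from that of the list. Those that rose outside the chaperone list were Alg12, a mannosyltransferase of N-glycan assembly, and Syvn1, a ubiquitin ligase of endoplasmic reticulum degradation, which went from 27.9 and 15.0 FPKM to 74.5 and 56.2 FPKM. Xbp1, a transcription factor of the unfolded protein response, rose from 69.5 and 36.8 FPKM to 132 and 149 FPKM (log2 change 1.46, SE 0.29, adjusted p = 0.0101). It is a member already counted in the chaperone list and is not among the genes with the element. The 1 gene that fell was Adcy3, an adenylate cyclase. Alg12, Syvn1 and Adcy3, and Xbp1 among the members of its list, were picked for naming after their values were seen. The calls of Canx and Alg12 were lost without any 1 of the 4 lines, those of Xbp1 and Dnajc3 without 3.34Null, and that of Adcy3 without 3.34Null, 3WT or 3.34Null-Rescue.

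Lysosomal genes rose in 19 of 25 members tested, and none fell; the median log2 change was 1.74. Ctsl, cathepsin L, an abundant protease of the yolk sac endoderm, had 573 and 159 FPKM at passage 1 and 3957 and 1083 FPKM at passage 3 (log2 change 2.77, SE 0.20, adjusted p = 0.000207). Its level was higher in 2.6Null at both stages, and the change was alike in the 2 lines. Ctsh, another cathepsin, went from 16.2 and 4.39 FPKM to 161 and 105 FPKM (log2 change 3.77, SE 0.36, adjusted p = 0.000612). Lamp1, the membrane protein of the lysosome, went from 549 and 252 FPKM to 1242 and 1119.9 FPKM (log2 change 1.66, SE 0.27, adjusted p = 0.00463), a call lost without 3.34Null. The count stayed at 19 without 2.6Null and was 16 without 3.34Null.

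Yolk sac endocytosis genes did not move as a group: 4 rose, 2 fell and 7 did not pass, with a median log2 change of -0.09. Over all genes tested 12.9% rose and 9.58% fell. Lrpap1, the chaperone of the LDL receptor family, rose from 237 and 27.9 FPKM to 819.7 and 611 FPKM (log2 change 3.10, SE 0.49, adjusted p = 0.00436), and Rab11fip5, a recycling endosome adaptor, rose by 2.18 (SE 0.29, adjusted p = 0.00226). Folr1, a folate receptor, fell from 95.7 and 14.3 FPKM to 2.81 and 3.07 FPKM (log2 change -3.29, SE 0.60, adjusted p = 0.00739). Cubn, the endocytic receptor cubilin, went in opposite directions, from 113 to 12.2 FPKM in 2.6Null and from 2.89 to 23.5 FPKM in 3.34Null (adjusted p = 0.899). Among 14 visceral endoderm genes, 2 fell and none rose, with a median log2 change of -0.70. The count that fell is near the share of all genes tested. Trf, transferrin, went from 7.51 and 13.6 FPKM to 0.948 and 1.04 FPKM (log2 change -2.48, SE 0.25, adjusted p = 0.000749), and Apob, an apolipoprotein, was below 1 FPKM in all 4 libraries, with a call lost without either Null line. Ttr, transthyretin, was low throughout, with 2.38 and 0.388 FPKM and then 0.881 and 0.280 FPKM, and Afp did not reach the minimum level for the test.

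Of 15 genes of simple epithelium, 6 fell, 9 did not pass and none rose, with a median log2 change of -0.90. Cdh1, E-cadherin, had 159 and 184 FPKM at passage 1 and 41.3 and 39.9 FPKM at passage 3 (log2 change -2.05, SE 0.35, adjusted p = 0.00596). The claudins Cldn3 (45.7 and 44.0 FPKM to 4.91 and 2.18 FPKM, log2 change -3.40, SE 0.65, adjusted p = 0.00889) and Cldn4 (151 and 147 FPKM to 29.5 and 21.4 FPKM, log2 change -2.52, SE 0.67, adjusted p = 0.0308) fell with it. In each of these genes the stages did not overlap and the lines differed less than the stages. That is largely given by their calls on the same libraries and adds nothing to them. Cldn6, Ocln and Pkp2 are the other members that fell. Krt8, the keratin of early epithelia, had 548 and 289.6 FPKM and then 438 and 393 FPKM (adjusted p = 0.925), and Epcam 70.9 and 87.7 FPKM and then 36.1 and 55.9 FPKM (adjusted p = 0.38). Of 13 genes of the mesenchymal switch 5 rose (Snai1, Vim, Fn1, Tgfb1 and Zeb2) and none fell, with a median log2 change of 0.73. Over all genes tested 12.9% rose and 9.58% fell. Only 8 of the 13 changed in the same direction in both Null lines. The median of this list was -0.89 in 3WT and 0.84 in 3.34Null-Rescue. Snai1, a repressor of Cdh1, went from 24.6 and 7.01 FPKM to 80.1 and 161 FPKM. Without 3.34Null no epithelial gene was called and 2 mesenchymal genes were; without 2.6Null these counts were 3 and 1, and Cdh1, Cldn3, Cldn4, Cldn6 and Ocln lost their calls without either Null line.

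In the retinoic acid list 13 of 23 members fell, 1 rose and 9 did not pass, with a median log2 change of -1.53. Stra8, a retinoic acid-induced gene of germ cells, had 218 and 247 FPKM at passage 1 and 0.170 and 0.871 FPKM at passage 3, the largest fall by the naming rule (log2 change -7.30, SE 0.31, adjusted p = 2.4e-05). Cyp26a1, the hydroxylase that clears retinoic acid, had 597 and 524 FPKM and then 35.8 and 49.8 FPKM (log2 change -3.70, SE 0.29, adjusted p = 0.000263). Its passage 3 level remained above that of the same lines as ESCs, 0.612 and 0.111 FPKM, and near the 69.7 and 69.5 FPKM of the XEN lines. Cyp26b1, a hydroxylase of the same family, fell from 52.7 and 81.6 FPKM to 2.48 and 0.440 FPKM (log2 change -4.90, SE 0.53, adjusted p = 0.00099). Crabp2, the binding protein that carries retinoic acid to its receptors, fell from 154 and 206 FPKM to 7.91 and 6.36 FPKM (log2 change -4.47, SE 0.41, adjusted p = 0.000532). Rarb, a receptor that is itself a target, fell from 33.6 and 21.6 FPKM to 7.53 and 1.89 FPKM (log2 change -2.50, SE 0.46, adjusted p = 0.00781). Stra6, the retinol-binding protein receptor, was the member that rose, from 22.2 and 11.2 FPKM to 36.7 and 39.5 FPKM (log2 change 1.21, SE 0.31, adjusted p = 0.0262); its call was lost without 3.34Null, 3WT or 3.34Null-Rescue. The count of members that fell was 13 without 2.6Null and 9 without 3.34Null.

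Promoter windows of the same RefSeq set were searched on both strands for the DR5 element, the direct repeat bound by retinoic acid receptors. It was present in 32 windows (0.0974%), or by gene in 31 of 27025 genes (0.115%). Of the 17 genes of the retinoic acid list that have a window, 2 held it. Both are shown 5′ to 3′ along the gene's own strand with the element in capitals, since they are the textbook targets in the group; it begins 32 bases before the start of Cyp26a1, where it lies on the opposite strand, and 53 bases before that of Rarb.
Cyp26a1, chr19:37697558-37697857, plus strand: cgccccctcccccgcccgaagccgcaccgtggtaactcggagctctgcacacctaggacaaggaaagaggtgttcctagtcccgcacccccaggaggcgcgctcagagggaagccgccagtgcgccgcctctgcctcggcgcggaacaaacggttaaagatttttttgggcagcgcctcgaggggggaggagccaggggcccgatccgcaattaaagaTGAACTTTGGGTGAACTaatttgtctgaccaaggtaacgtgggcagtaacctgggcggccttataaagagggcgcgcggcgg
Rarb, chr14:16575427-16575726, minus strand: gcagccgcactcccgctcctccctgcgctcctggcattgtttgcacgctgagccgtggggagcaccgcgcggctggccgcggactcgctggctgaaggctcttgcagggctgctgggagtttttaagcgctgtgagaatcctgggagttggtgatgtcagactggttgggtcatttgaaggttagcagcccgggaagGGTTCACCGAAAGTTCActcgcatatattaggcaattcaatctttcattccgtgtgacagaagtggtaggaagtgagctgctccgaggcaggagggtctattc
Over all genes with the element, 5 were tested and 3 fell (60%), beside 9.58% of all genes tested: Cyp26a1, Rarb and Ppbp. Cyp26a1 and Rarb are the list members shown above, so this count adds little to that of the list. Ppbp, a platelet chemokine, went from 20.8 and 15.3 FPKM to 2.33 and 0.356 FPKM and was named after its values were seen.

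**Figure D3:**
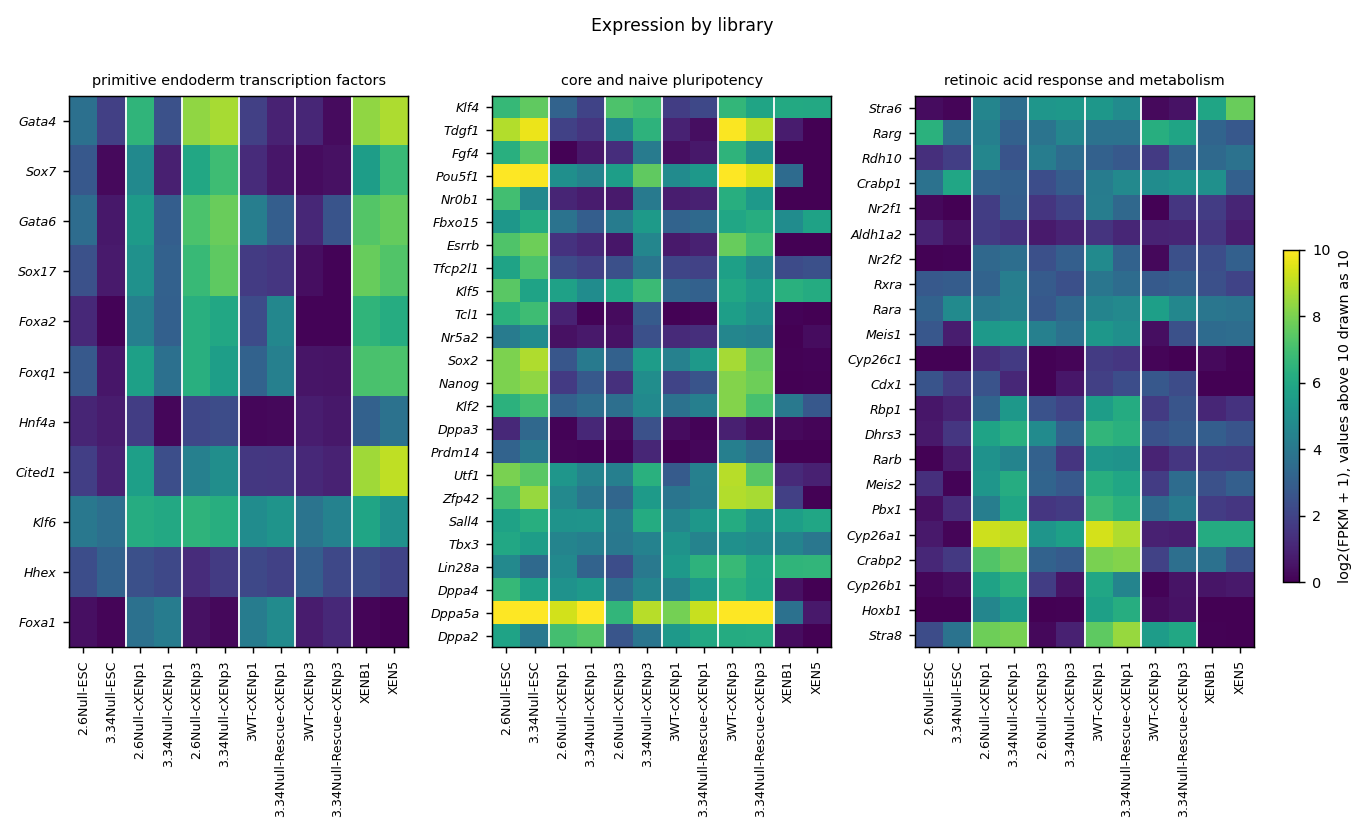
Level in log2(FPKM + 1) of tested members of 3 lists in the 12 libraries of the Null lines, the passaged Zfp281-present lines and the XEN lines; within a list, genes run from the largest rise to the largest fall between passage 1 and passage 3 in the Null lines. The top of the endoderm panel brightens at passage 3 in the Null and XEN columns alone, the pluripotency panel brightens in 3WT and 3.34Null-Rescue, and the foot of the retinoic acid panel is bright in all passage 1 columns.

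Of 33 Hox genes tested, which answer to retinoic acid along the clusters, 24 fell and none rose, with a median log2 change of -2.34. Hoxb1 had 23.3 and 41.6 FPKM at passage 1, and at passage 3 it was listed at 0 in 2.6Null and had 0.0324 FPKM in 3.34Null. Hoxb8 went from 29.9 and 85.6 FPKM to 0.995 and 0.765 FPKM (log2 change -4.78, SE 0.47, adjusted p = 0.000688). The calls took in all 4 clusters, with 10 members of the B cluster called from Hoxb1 to Hoxb13. As ESCs both lines had Hoxb1 and Hoxb8 near or below 1 FPKM. The Hox list fell in the Zfp281-present lines too, with a median log2 change of -2.46 in 3WT and -2.11 in 3.34Null-Rescue. Hoxb8 went from 73.6 to 0.293 FPKM in 3WT and from 76.2 to 2.69 FPKM in 3.34Null-Rescue. In the comparison with these lines below, 2 of the 33 had the higher change in the Null lines and 0 the lower. Gas1, a hedgehog co-receptor, fell from 105 and 188 FPKM to 3.91 and 1.26 FPKM (log2 change -5.41, SE 0.72, adjusted p = 0.0021), and Rec8, the meiotic cohesin, from 117 and 114 FPKM to 4.36 and 1.28 FPKM (log2 change -5.06, SE 0.46, adjusted p = 0.000535). The Hox count was 22 without 2.6Null and 16 without 3.34Null.

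All 12 tested genes of the 2-cell-like list, a set of transcripts that mark the totipotent-like state which a few ESCs enter, fell, with a median log2 change of -4.27, and the count was 12 without either Null line. Zscan4d had 53.1 and 101 FPKM at passage 1 and 0.137 and 0.533 FPKM at passage 3 (log2 change -5.82, SE 0.73, adjusted p = 0.0017). Zscan4c, Zscan4e and Zscan4f changed by -5.48, -5.25 and -5.53, and Usp17le, a deubiquitinase of the same state, by -4.82 (SE 0.39, adjusted p = 0.000324). Zscan4 and Usp17l genes are near-identical copies in tandem, so the values of single copies are uncertain and the family's fall is counted from genes that share reads. Zfp352, outside these families, fell from 7.41 and 4.33 FPKM to 0.0282 and 0.0627 FPKM (log2 change -2.68, SE 0.29, adjusted p = 0.00102). The predicted genes Gm5039 (-5.14) and Gm8994 (-5.08) are also among the 12 largest falls. In ESCs of the same lines Zscan4d had 1.07 and 0.0295 FPKM, so its level was high at passage 1 and not before or after. The list fell in the Zfp281-present lines too, with a median log2 change of -3.16 in 3WT and -1.24 in 3.34Null-Rescue. Zscan4d went from 50.1 to 0.961 FPKM in 3WT and from 23.4 to 8.68 FPKM in 3.34Null-Rescue. In the comparison with these lines below, 1 of the 12 had the lower change in the Null lines.

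Pluripotency genes set the 2 lines apart. Of 24 tested, 4 rose, 1 fell and 19 did not pass, near or below the 12.9% and 9.58% of all genes tested. The median log2 change was -0.15 in 2.6Null and 1.83 in 3.34Null, and at passage 3 only 1 of the 24 was higher in 2.6Null. Nanog had 2.24 and 5.87 FPKM at passage 1 and 1.64 and 28.5 FPKM at passage 3 (adjusted p = 0.332). Pou5f1 (Oct4) had 30.6 and 21.0 FPKM and then 47.4 and 189 FPKM (adjusted p = 0.0544), and Sox2 5.35 and 16.4 FPKM and then 7.54 and 45.0 FPKM (adjusted p = 0.214). Esrrb, a naive-state receptor, went from 1.75 to 0.509 FPKM in 2.6Null and from 1.19 to 22.8 FPKM in 3.34Null. These core factors were thus higher at passage 3 in 3.34Null, and all stayed below the ESC level of their own line, which for Pou5f1 was 1312 and 977 FPKM. Klf4, a factor of the naive state that other tissues also use, rose in both lines, from 8.06 and 3.00 FPKM to 146 and 123 FPKM (log2 change 4.48, SE 0.44, adjusted p = 0.000677), and the XEN lines had 66.7 and 64.5 FPKM. Tdgf1, the Nodal co-receptor Cripto, rose from 2.85 and 1.93 FPKM to 25.7 and 87.3 FPKM (log2 change 3.86, SE 0.42, adjusted p = 0.00103). Fgf4 rose from 0.0546 and 0.570 FPKM to 1.5 and 17.0 FPKM (log2 change 2.38, SE 0.56, adjusted p = 0.0194), and Fbxo15 by 1.42 (SE 0.43, adjusted p = 0.0473). Dppa2 fell from 127 and 160.2 FPKM to 5.20 and 13.8 FPKM (log2 change -3.91, SE 0.60, adjusted p = 0.00362). Without 2.6Null the list counted 13 higher and 1 lower, and without 3.34Null 2 higher and 2 lower, with Fgf4 and Fbxo15 no longer called. Of 15 genes of the formative and primed epiblast 2 rose (Otx2 and Pou3f1, both below 10 FPKM) and 2 fell (Sox4 and Cldn6), with a median of 0.18. Both counts are near the shares of all genes tested, and the calls of Otx2 and Pou3f1 were lost without either Null line.

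Genes of the signalling lists moved in both directions. In the Nodal and activin pathway 5 of 21 rose and 2 fell, with a median log2 change of -0.04. Over all genes tested 12.9% rose and 9.58% fell, and the count of members that fell is near that share. Fst, follistatin, which binds activin, had 6.83 and 6.30 FPKM at passage 1 and 401 and 405 FPKM at passage 3 (log2 change 5.74, SE 0.40, adjusted p = 0.000191). The 2 lines were alike at each stage. Inhba, the activin A subunit, was listed at 0 in 2.6Null and had 0.647 FPKM in 3.34Null at passage 1, and 36.3 and 23.3 FPKM at passage 3. Inhbb, the activin B subunit, rose from 0.166 and 0.171 FPKM to 2.87 and 7.71 FPKM (log2 change 2.31, SE 0.32, adjusted p = 0.00239). The Nodal antagonists fell, Lefty1 from 10.1 and 75.1 FPKM to 3.09 and 5.43 FPKM (log2 change -2.50, SE 0.73, adjusted p = 0.042) and Lefty2 from 6.27 and 11.6 FPKM to 0.219 and 3.29 FPKM (log2 change -2.07, SE 0.52, adjusted p = 0.0264). The calls of both were lost without 2.6Null, and that of Lefty1 also without 3.34Null.

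In the BMP list 5 of 18 rose and 4 fell, beside 12.9% and 9.58% of all genes tested. Bmp2, a BMP ligand, rose from 3.47 and 1.68 FPKM to 44.3 and 43.7 FPKM (log2 change 3.70, SE 0.26, adjusted p = 0.000207), and Bmp6 by 1.82 (SE 0.35, adjusted p = 0.00954). Among antagonists Nog, noggin, rose from 6.08 and 3.44 FPKM to 73.2 and 41.6 FPKM (log2 change 3.33, SE 0.29, adjusted p = 0.000436), and Grem1 from a listed 0 and 0.0293 FPKM to 25.9 and 9.32 FPKM. Bmper, a BMP-binding protein, had 3.10 and 0.572 FPKM and then 126 and 137 FPKM (log2 change 5.70, SE 0.52, adjusted p = 0.000532). Among targets of the pathway Id2 fell from 77.9 and 110.4 FPKM to 18.4 and 18.1 FPKM (log2 change -2.29, SE 0.41, adjusted p = 0.00688), Id3 by 2.31 (SE 0.68, adjusted p = 0.0433), and Smad6, an inhibitory SMAD, by 1.74 (SE 0.25, adjusted p = 0.00274). Id4 rose by 1.75 (SE 0.25, adjusted p = 0.00286), and Id1, with 168 and 147 FPKM and then 50.1 and 28.8 FPKM, did not pass (adjusted p = 0.143). The calls of Bmp6 and Id2 were lost without 3.34Null and that of Id3 without either Null line.

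Of 22 FGF and PDGF genes 9 rose and 3 fell, with a median log2 change of 1.12. Over all genes tested 12.9% rose and 9.58% fell, and the falls in this list and the rises in the WNT list below are near those shares. Fgf3, a ligand made by parietal endoderm, rose from 6.70 and 0.882 FPKM to 20.5 and 38.2 FPKM (log2 change 2.93, SE 0.59, adjusted p = 0.0112). Among receptors, Fgfr4 rose from 5.94 and 0.656 FPKM to 11.8 and 15.0 FPKM (log2 change 2.08, SE 0.50, adjusted p = 0.0209), Fgfr2 fell from 11.2 and 17.0 FPKM to 1.72 and 1.33 FPKM (log2 change -2.56, SE 0.34, adjusted p = 0.0021), and Fgfr1 fell by 1.22 (SE 0.24, adjusted p = 0.0102). Feedback inhibitors of the pathway differed from each other: Spry4 rose by 2.43 (SE 0.50, adjusted p = 0.0123) and Spry2 by 1.58 (SE 0.33, adjusted p = 0.0121), while Spry1 fell by 1.53 (SE 0.37, adjusted p = 0.0233). Without 3.34Null 2 of the 22 rose and 1 fell, and Fgf3, Fgfr4, Fgfr1, Spry2, Spry4 and Spry1 were not called; Spry1 was also lost without 2.6Null. Of 27 WNT genes 3 rose and 7 fell, with a median of -0.42, and Wnt5a, a non-canonical ligand, rose from 0.633 and 0.374 FPKM to 8.50 and 8.33 FPKM (log2 change 2.65, SE 0.65, adjusted p = 0.0233), a call lost without either Null line.

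Other genes that the naming rule selected were channels, a heparan sulfate enzyme and a prostaglandin receptor. Aqp8, a water channel, had 3.43 and 0.363 FPKM at passage 1 and 583 and 182 FPKM at passage 3 (log2 change 7.06, SE 0.28, adjusted p = 2.07e-05), and Aqp1, another, 0.655 and 0.0687 FPKM and then 65.9 and 38.5 FPKM (log2 change 5.27, SE 0.28, adjusted p = 7.62e-05). Hs3st1, a heparan sulfate sulfotransferase, went from 16.4 and 1.48 FPKM to 259 and 357 FPKM (log2 change 5.54, SE 0.62, adjusted p = 0.0011). Ptger3, a prostaglandin E2 receptor, went from 0.675 and 0.412 FPKM to 26.5 and 112 FPKM (log2 change 5.18, SE 0.51, adjusted p = 0.000677), and Cdh13, a cadherin without a cytoplasmic part, from 0.0642 and 0.0204 FPKM to 57.8 and 20.8 FPKM (log2 change 5.10, SE 0.34, adjusted p = 0.000164). Both aquaporins and Cdh13 were higher in 2.6Null at passage 3, and Ptger3 in 3.34Null. Genes listed at 0 in both lines at passage 1 were, besides Eef1a1, the chemokine Ccl7 (23.2 and 18.8 FPKM at passage 3), the prolactin relative Prl2c3 (10.0 and 7.37 FPKM) and the collagen Col10a1 (11.3 and 5.12 FPKM). The table gives the small nucleolar RNA gene Snora21 143 and 109.9 FPKM at passage 1, and in each other library of the series it is listed at 0.

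Of 16 fibroblast markers tested, after a passage on feeders, 8 rose and none fell, with a median log2 change of 2.80. Lox, lysyl oxidase, which is outside the list and was among the largest rises, had 0.184 and 0.299 FPKM at passage 1 and 70.6 and 42.0 FPKM at passage 3 (log2 change 5.48, SE 0.90, adjusted p = 0.00491). Fbln2, fibulin 2, went from 1.34 and 1.47 FPKM to 112 and 92.6 FPKM (log2 change 5.42, SE 0.56, adjusted p = 0.000834), and Col1a2, a type I collagen chain, from 0.563 and 2.74 FPKM to 108 and 83.9 FPKM (log2 change 5.31, SE 1.17, adjusted p = 0.0154). The XEN lines, grown without feeders, had 108 and 59.1 FPKM of Lox, 291 and 126 FPKM of Fbln2 and 184 and 154 FPKM of Col1a2. The summed level of the list was 28.8 and 43.8 FPKM at passage 1 and 592.9 and 461.1 FPKM at passage 3 in the Null lines, 1108 FPKM in XENB1 and 803 FPKM in XEN5, 55.9 FPKM in 3WT at passage 3 and 1502 FPKM in 3.34Null-Rescue at passage 3. Dcn, a fibroblast transcript, had 0.372 and 4.96 FPKM at passage 1 in the Null lines. At passage 3 it had 3.27 and 1.86 FPKM, against 27.9 FPKM in 3.34Null-Rescue. Lum stayed below 1 FPKM in all 4 Null libraries. Dcn and Lum are 2 members and do not stand for the list: the mean change of the 2 lines was above 0 in all 16. In bulk RNA more cells of a type and more RNA per cell cannot be told apart, and the part of fibroblasts in the rises of collagens, Lox, Fbln2, Vim and Snai1 was not tested. Without 2.6Null or without 3.34Null 2 of the 16 were called, and Col1a2 was not among them; the call of Lox was lost in the same fits.

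The remaining lists cover other cell types and states. Over all genes tested, 12.9% rose and 9.58% fell. The counts of the smooth muscle, trophoblast, cell cycle, imprinted, YAP, glycolysis and PRC2 lists lie near or below these shares. They are not read as changes of those lists. In the smooth muscle list 1 of 12 was called higher, in the trophoblast list 1 of 11 rose and 1 fell, in the neural list 2 of 11 rose and 3 fell, and in the mesendoderm list 1 of 5 fell. Of 16 stress and immediate early genes, 7 rose and 1 fell, with a median log2 change of 0.59: Ddit3, a factor of the unfolded protein response, went from 10.4 and 6.53 FPKM to 95.7 and 25.7 FPKM (log2 change 2.46, SE 0.37, adjusted p = 0.00337), and Fos from 2.54 and 4.09 FPKM to 24.3 and 18.8 FPKM (log2 change 2.40, SE 0.32, adjusted p = 0.00221). Of 21 cholesterol synthesis genes, 6 fell and 2 rose, with a median of -0.61. Fdps, an enzyme of the mevalonate pathway, fell by 1.42 (SE 0.37, adjusted p = 0.0289) and Sqle, squalene epoxidase, by 1.03 (SE 0.24, adjusted p = 0.0182), each only with both Null lines in the fit. Among 30 cell cycle genes, 2 rose and 1 fell: Ccnd2 rose from 19.4 and 19.3 FPKM to 264 and 66.5 FPKM (log2 change 2.72, SE 0.63, adjusted p = 0.0188) and Ccnd1 by 1.42 (SE 0.33, adjusted p = 0.02), both lost without 2.6Null. Among 22 imprinted genes, 3 fell and none rose: Mest went from 421 and 714 FPKM to 37.8 and 26.1 FPKM (log2 change -4.08, SE 0.48, adjusted p = 0.0013), the log2 change of Peg10 was -3.43 (SE 0.90, adjusted p = 0.03) and that of Nnat -2.61 (SE 0.57, adjusted p = 0.0152). The Peg10 call was lost without 3WT or 3.34Null-Rescue, and the Nnat call without 3.34Null. Ctgf, a target of YAP, rose from 114 and 41.3 FPKM to 1653 and 878 FPKM (log2 change 4.11, SE 0.50, adjusted p = 0.00149), within a YAP list of 2 higher and 2 lower of 15. Of 19 glycolysis genes 2 rose and none fell, and of 19 genes of PRC2 and DNA methylation 1 fell.

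**Figure D4:**
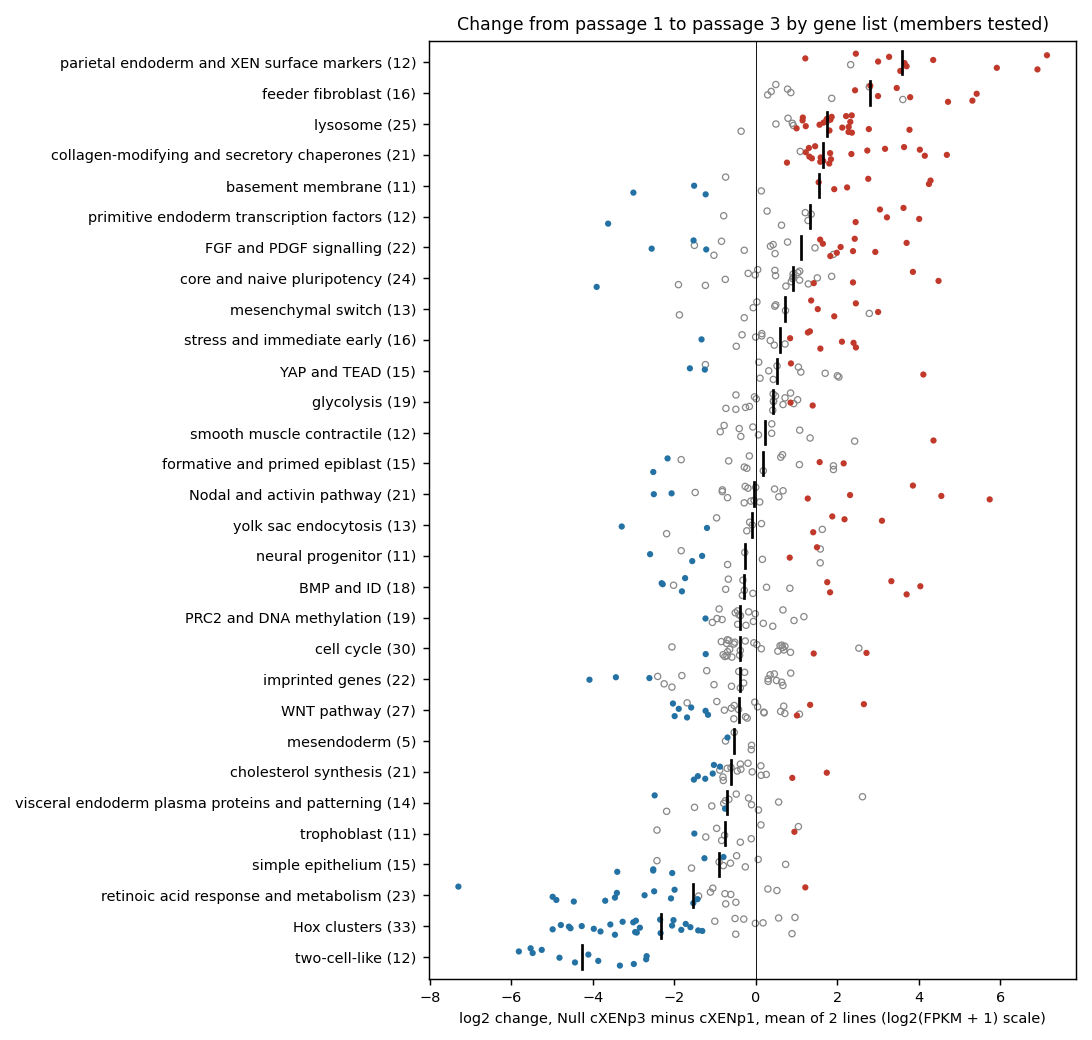
Log2 change from passage 1 to passage 3 in the Null lines for each tested member of 30 lists, with members listed at 0 in both libraries of a stage left out; filled points passed the test, red higher and blue lower, and black bars are list medians. The surface markers, lysosome and chaperone lists lie to the right of 0, and the retinoic acid, Hox and 2-cell-like lists to the left.

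The same step was then compared with that of the lines that have Zfp281, 3WT and 3.34Null-Rescue, by the interaction of passage with genotype in the same fit. It was higher in the Null lines in 5 of 12 primitive endoderm factors, 9 of 21 chaperones and 13 of 25 lysosomal genes, and lower in 12 of 24 pluripotency genes. Of 13191 genes, 1583 (12%) differed, 970 with the higher change in the Null lines (7.35%) and 613 with the lower (4.65%). Quantile normalization gave 1010 and 908. The count rests on 3WT: without it 12 genes were called, with 1760 at an unadjusted p under 0.05, without 3.34Null-Rescue 405, without 2.6Null 649 and without 3.34Null 1688. Without 3WT, 1 of the 12 endoderm factors was higher in the difference.

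Gata6 had 18.2 FPKM in 3WT and 7.04 FPKM in 3.34Null-Rescue at passage 1 and 1.16 and 5.03 FPKM at passage 3, a difference of 5.00 (SE 1.19, adjusted p = 0.0352) between the log2 changes of Null and Zfp281-present lines. Foxa2 had 3.90 and 23.7 FPKM in these lines at passage 1 and 0.0801 and 0.0773 FPKM at passage 3 (difference 5.8, SE 0.77, adjusted p = 0.00702). Lamb1 had 64.4 and 52.5 FPKM and then 27.6 and 48.4 FPKM (difference 4.90, SE 0.80, adjusted p = 0.0134). For all 3 genes the levels of the Zfp281-present lines at passage 3 lay below every Null library of either passage. Fst had 3.57 and 5.07 FPKM and then 0.853 and 4.25 FPKM (difference 6.49, SE 0.56, adjusted p = 0.00162). Stra6 had 38.6 and 27.6 FPKM and then 0.203 and 0.419 FPKM (difference 5.90, SE 0.44, adjusted p = 0.00139), and Slco2a1, a prostaglandin transporter, 2.13 and 1.64 FPKM and then 0.551 and 0.416 FPKM, against 8.19 and 2.14 FPKM and then 273 and 82.8 FPKM in the Null lines (difference 5.78, SE 0.31, adjusted p = 0.000273). The calls of Fst, Stra6, Foxa2 and Slco2a1 held in every alternative run, and those of Gata6 and Lamb1 were lost without 3WT, that of Gata6 also without 3.34Null or 3.34Null-Rescue.

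Genes of the retinoic acid list differed from each other. The list fell in 3WT (median log2 change -3.84) and 3.34Null-Rescue (-2.36) too, with 2 of 23 higher and 1 lower in the difference. Cyp26a1 fell in all 4 lines, to 35.8 and 49.8 FPKM in the Null lines and to 0.903 and 0.776 FPKM in 3WT and 3.34Null-Rescue (difference 4.50, SE 0.40, adjusted p = 0.00187). Stra8 fell further in the Null lines, from 183 and 350.1 FPKM to 44.6 and 63.1 FPKM in 3WT and 3.34Null-Rescue (difference -5.07, SE 0.44, adjusted p = 0.00162). Both calls were lost without 3WT. Of 15 genes of simple epithelium 3 were higher in the difference and 1 lower, with a median of -0.47. Over all genes tested 7.35% were higher and 4.65% lower. Of the 4 keratins in that list Krt8 and Krt18 were called. Krt8 had 158 and 149 FPKM in 3WT and 3.34Null-Rescue at passage 1 and 9.67 and 13.1 FPKM at passage 3, where the Null lines had 438 and 393 FPKM (difference 3.71, SE 0.52, adjusted p = 0.00838). The difference was 3.10 for Krt18 (SE 0.33, adjusted p = 0.00369), and for Krt19 (1.56, adjusted p = 0.0728) and Krt7 (-0.47, adjusted p = 0.815) it did not pass. The calls of Krt8 and Krt18 were lost without 3WT. Among lower differences, 12 of 24 pluripotency genes were called and none higher, a count of 0 without 3WT and 4 without 3.34Null-Rescue. Esrrb had 0.618 and 0.875 FPKM in 3WT and 3.34Null-Rescue and then 204 and 117 FPKM (difference -5.19, SE 1.18, adjusted p = 0.0313). The predicted gene Gm7325 (difference -5.17, SE 1.14, adjusted p = 0.0295), Tcf15, a factor of epiblast priming (-5.00, SE 1.25, adjusted p = 0.0403), and Lefty2 (-4.94, SE 0.74, adjusted p = 0.0106) followed. Lefty2 had 283 and 269.9 FPKM in 3WT and 3.34Null-Rescue at passage 3, against 0.219 and 3.29 FPKM in the Null lines. Without 3WT these 4 calls were lost, and all but that of Lefty2 were also lost without 3.34Null-Rescue. Chaperones (9 of 21) and lysosomal genes (13 of 25) were higher in the difference, and 0 of either list without 3WT. Fibroblast markers gave no call, the summed level of 3.34Null-Rescue at passage 3 being the highest of the course.

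The passage 3 Null libraries were then set beside established XEN lines. Pearson's r with the mean of XENB1 and XEN5 over 13191 genes, given as a description, was 0.797, 0.878 and 0.939 in 2.6Null at ESC, passage 1 and passage 3, and 0.773, 0.822 and 0.953 in 3.34Null. In 3WT it was 0.784 and in 3.34Null-Rescue 0.833 at passage 3. Of 13386 genes tested, 551 (4.12%) differed between the passage 3 Null libraries and the XEN lines, 353 higher (2.64%) and 198 lower (1.48%) in the Null lines; quantile normalization gave 251 and 252. The count was 212 without 2.6Null-cXENp3, 228 without XEN5, 393 without XENB1 and 698 without 3.34Null-cXENp3. For Gata6 the difference was -0.03 (SE 0.93) and for Lamb1 0.23 (SE 0.63) on the log2 scale.

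Of 24 pluripotency genes 8 were higher than in the XEN lines and 1 lower, and of 15 genes of simple epithelium 2 were higher and 1 lower. Dppa5a, a marker of ESCs, had 93.9 and 486 FPKM against 12.4 and 0.591 FPKM in XENB1 and XEN5 (log2 difference 5.54, SE 0.92, adjusted p = 0.0097). Sox2 had 7.54 and 45.0 FPKM against 0.0549 and 0.0709 FPKM (4.22, SE 0.71, adjusted p = 0.0102), Utf1, a chromatin factor of ESCs, 18.8 and 80.7 FPKM against 1.27 and 0.908 FPKM (4.27, SE 0.67, adjusted p = 0.00704), and Tdgf1 25.7 and 87.3 FPKM against 0.703 FPKM and a listed 0. In each of these genes both Null libraries exceeded both XEN libraries, with 3.34Null the higher of the 2. Cdh1, though lower than at passage 1, had 41.3 and 39.9 FPKM against 4.28 and 0.610 FPKM (3.83, SE 0.48, adjusted p = 0.00192), and Cldn4 29.5 and 21.4 FPKM against 0.963 and 0.04 FPKM (4.20, SE 0.62, adjusted p = 0.00529). Aqp1 had 65.9 and 38.5 FPKM against 2.52 and 1.00 FPKM (4.28, SE 0.35, adjusted p = 9.09e-05). The locus BC002163 had 67.7 and 59.6 FPKM against 1.15 and 0.842 FPKM (5.02, SE 0.25, adjusted p = 2.98e-06), and Hspg2 252 and 264 FPKM against 60.8 and 44.9 FPKM (2.28, SE 0.48, adjusted p = 0.0269). The call of Sox2 was lost without XEN5, and that of Hspg2 without any 1 of the 4 libraries.

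Of 12 primitive endoderm factors only Cited1 was called lower than in the XEN lines, and of 12 surface markers only Lyz2. None of either list was called higher, and the median log2 differences were -0.29 and 0.25. Of 27 WNT genes 2 were lower and 1 higher, and over all genes tested 1.48% were lower. Cited1 had 19.3 and 30.0 FPKM against 379 and 524 FPKM in the XEN lines (log2 difference -4.15, SE 0.76, adjusted p = 0.0136), Wnt11, a WNT ligand, 6.59 and 7.02 FPKM against 67.4 and 70.5 FPKM (-3.16, SE 0.40, adjusted p = 0.00205), and Lyz2 57.5 and 64.6 FPKM against 802 and 311 FPKM (-3.01, SE 0.51, adjusted p = 0.0107). Each had lower values in both Null libraries than in both XEN lines. Car4, a carbonic anhydrase, had 1.22 and 2.53 FPKM against 101 and 47.7 FPKM (-4.65, SE 0.83, adjusted p = 0.0122), and Wfdc17 0.522 and 0.881 FPKM against 38.2 and 21.4 FPKM (-4.13, SE 0.27, adjusted p = 2.18e-05). The X-linked gene 4933402E13Rik had 0.664 and 1.77 FPKM against 55.1 and 25.4 FPKM (-4.16, SE 0.71, adjusted p = 0.0107). Xist, the RNA that coats the inactive X chromosome of female cells, had 0.469 and 0.304 FPKM against 50.5 and 57.2 FPKM (-5.30, SE 0.22, adjusted p = 9.12e-07). The calls of Car4, 4933402E13Rik and Lyz2 were lost without 2.6Null-cXENp3 or XENB1, and that of Cited1 without 2.6Null-cXENp3 or XEN5.

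**Figure D5:**
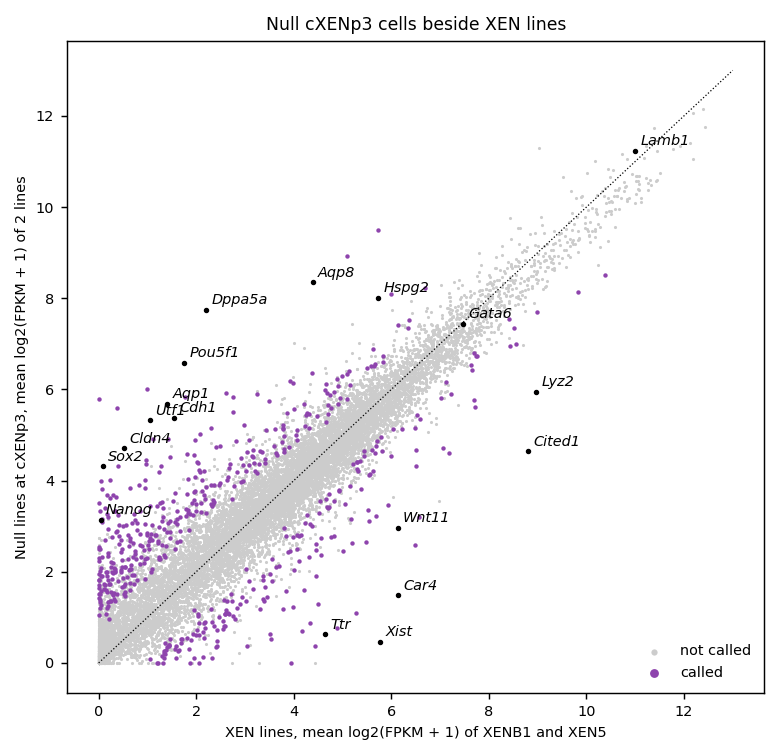
Mean log2(FPKM + 1) of the passage 3 Null libraries (vertical axis) against the mean of XENB1 and XEN5 (horizontal axis), each point 1 gene, with called genes in purple. Gata6 and Lamb1 lie on or next to the dotted line of equal level, pluripotency genes and Cdh1 above it, and Cited1, Lyz2, Wnt11 and Xist below it.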

How the data were processed

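PolyA RNA-seq of 14 libraries was deposited as 1 table of 23174 gene loci. The authors deposited FPKM values; per the submitters' processing notes STAR 2.5.3, Cufflinks 2.1.1 and the mm9 build were used, and the filters are not given in the sources used here. No counts are in the table, so intervals from counting error cannot be given, and precision is set by the number of libraries. All value columns matched a library by its title (0 were left unused), and no 2 libraries held identical values. Coordinates were shifted to count from 1.

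Values were tested as log2(FPKM + 1) with limma 3.58.1 (R 4.3.3, lmFit and eBayes with trend) over genes with at least 1 FPKM in at least 2 fitted libraries, and a gene was called where its p, adjusted over all genes tested by the Benjamini-Hochberg method, was under 0.05; every adjusted p printed is from limma. The step from passage 1 to passage 3 was fitted on 12 libraries (ESC, passage 1 and passage 3 of 4 lines), with each line as a block and separate stage effects for Null and Zfp281-present lines, which leaves 4 residual degrees of freedom. The difference between the 2 kinds of line is the interaction in that fit. The passage 3 Null libraries were compared with XEN lines over 14 libraries in 7 groups. Libraries of a line were paired because they come from the same cell line; the deviations of the lines correlated at 0.187 between passage 1 and passage 3 in the Null lines and at -0.216 in the Zfp281-present lines.

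The lines, the 30 gene lists and the tests were chosen with earlier results of these data known. Genes were named as list members, or as the 12 largest rises and 12 largest falls among called genes that moved the same way in both lines with a mean of at least 5 FPKM in the higher stage and no exact 0; genes listed at 0 in both libraries of a stage were ranked apart, up to 5 each way, and the other comparisons took 5 genes each way. A few genes are not reported here by name and stay in the counts. Promoter windows and motifs were read from RefSeq (GRCm38.p6). The fits were checked on simulated data. A gene that did not pass is not shown to be unchanged. The alternatives tried were a pseudocount of 0.1, no filter, a mean of at least 5 FPKM, quantile normalization, no trend, a minimum log2 change of 1, no block, fewer libraries, and leaving out each line or library.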

Additional observations from a re-analysis of the deposited data

Results flagged for a closer look

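The step from passage 1 to passage 3 differed between the Null lines and the Zfp281-present lines, by the interaction term of the fit, in 1583 genes. Among the largest differences by the naming rule with the higher change in the Null lines were those of Fst (6.49 on the log2 scale), Stra6 (5.90), Foxa2 (5.8) and Slco2a1 (5.78). Those with the lower change were Esrrb (-5.19), Gm7325 (-5.17), Stra8 (-5.07), Tcf15 (-5.00) and Lefty2 (-4.94). Stra8 fell in every line of the course, from 183 to 44.6 FPKM in 3WT and from 218 to 0.170 FPKM in 2.6Null. In Esrrb, Gm7325 and Tcf15 the Null lines themselves moved apart, with 0.509, 0.505 and 8.09 FPKM in 2.6Null and 22.8, 15.4 and 45.8 FPKM in 3.34Null at passage 3.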

How the results depend on the processing

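Depth is unknown for all libraries, and each line gave 1 library per stage. For the step, 2791 to 3449 genes were called with a pseudocount of 0.1, no filter, quantile normalization, no trend or the 4 Null libraries alone, 2298 with a minimum log2 change of 1, 2119 with 8 libraries, and 1846 of 8943 genes tested with a mean of at least 5 FPKM. Leaving out 1 line gave 1268 to 1968; such fits have 2 residual degrees of freedom and assume that the lone library of a stage varies like the others. The difference between Null and Zfp281-present lines gave 935 without the filter, 436 with 8 libraries, and 12 to 1688 without 1 line. The comparison with XEN lines gave 236 with a mean of at least 5 FPKM, 44 with 4 libraries alone, and 212 to 698 without 1 library. Without the replicate block that pairs libraries of a line, the step gave 2806 genes and the difference 1510, and 8 of the 123 named step genes lost their call. Of those 123 genes 63 kept their call in every alternative and none changed sign; the losses were 52 without 3.34Null, 29 without 2.6Null, 10 without 3WT, 10 without 3.34Null-Rescue, 23 with no filter, 23 with 8 libraries, 9 with a pseudocount of 0.1, and 2 to 8 in each other setting. Of 14 genes named for the difference 4 kept their call in every alternative, and of 16 named against XEN lines 7 did; none changed sign. Chosen after seeing the data, leaving out genes with any exact 0 in the 4 Null libraries removed 160 calls, to 2812.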
